A study of Mus musculus with 6 samples.

Results

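The smooth muscle contractile genes described here were 10 genes of the 52636 in the table: Acta2, Actg2, Tagln, Myh11, Cnn1, Mylk, Actc1, Acta1, Lmod1 and Des. They were taken by name, as the genes whose products build and regulate the contractile apparatus of smooth muscle, and the rule uses no measured value, although earlier results of these data were known when they were chosen. Their transcripts were counted by single-cell RNA sequencing in 25428 cultured cells from the mouse choroid and retinal pigment epithelium (RPE), the pigmented layer behind the retina and the vascular coat beneath it. The cells came from 3 samples of Dram2 wt/wt mice and 3 samples of Dram2 ko/ko mice, all male C57BL/6J animals between 12 and 16 months of age, and no drug or other agent separated the groups. The ko/ko allele was a constitutive CRISPR/Cas9 deletion present in every cell of the animal, and Dram2 encodes a lysosomal membrane protein linked to autophagy. Per the methods, the tissue was digested with papain and the cells were grown in an RPE growth medium before sequencing, so that every cell measured, in both groups, had been through culture. The labels do not state whether the 3 samples of a genotype were separate animals or separate cultures, so p-values here measure the spread between samples, which may be technical.

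Smooth muscle shortens when myosin pulls on actin filaments after calcium, through calmodulin and myosin light chain kinase, has led to phosphorylation of the myosin light chain. Fibroblasts placed in culture on a stiff surface take up a part of the same programme, and a fibroblast with actin stress fibres that contain smooth muscle alpha-actin is called a myofibroblast. In choroid, the resident cells that use the full programme are the mural cells of arterioles and larger vessels. Serum response factor (SRF), with its cofactors myocardin and the myocardin-related factors, drives many of these genes through a promoter element known as the CArG box.

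Of the 10 genes, 4 encode actins that differ in the muscle type where each predominates. Acta2, smooth muscle alpha-actin, lies on the minus strand of chromosome 19 from 34241090 to 34255590 (GRCm38). Actg2, the gamma-actin of visceral smooth muscle, lies on chromosome 6 from 83512905 to 83536265. Acta1, the alpha-actin of adult skeletal muscle, lies on chromosome 8 from 123891769 to 123894751, and Actc1, the cardiac alpha-actin, on chromosome 2 from 114047282 to 114053548. The motor is represented by Myh11, the smooth muscle myosin heavy chain, on chromosome 16 from 14194535 to 14291372. Mylk, the myosin light chain kinase that switches the motor on, lies on the same chromosome from 34745210 to 35002420. Tagln (transgelin) and Cnn1 (calponin 1) bind actin filaments. They lie on chromosome 9, from 45929619 to 45936058 and from 22099216 to 22109630. Lmod1 (leiomodin 1), which nucleates actin filaments, and Des (desmin), the muscle intermediate filament, lie on chromosome 1 from 135324807 to 135368065 and from 75360329 to 75368579. All 10 are annotated as protein-coding.

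The promoter sequences printed here show the CArG box, the element that links these genes to SRF: the exact boxes, and for Acta2 the nearest ones. RefSeq promoters (GRCm38.p6) were at hand for 7 of the 10 genes, all but Actg2, Tagln and Myh11, and the 250 bases before each start were searched for the CArG box, which reads CC, then 6 bases that are each A or T, then GG, and has the same form on both strands. An exact box was found in 2 of the 7 promoters, those of Acta1 and Actc1, against 1.47% of 32851 promoters. A box at most 1 base off was found in 3 of the 7, with Acta2 added, against 8.59% of all promoters. Here and below, a base off was allowed only among the 6 inner bases, with CC and GG kept. Each line gives 30 bases of the minus strand, 5′ to 3′, with the box in capitals.
Acta2, box starting 84 bases before the start, 1 base off, chr19:34255438-34255467: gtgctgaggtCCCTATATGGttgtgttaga
Acta2, box starting 34 bases before the start, 1 base off, chr19:34255388-34255417: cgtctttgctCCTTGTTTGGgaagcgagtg
Actc1, box starting 47 bases before the start, exact, chr2:114052903-114052932: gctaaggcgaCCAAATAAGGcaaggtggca
Acta1, box starting 73 bases before the start, exact, chr8:123894829-123894858: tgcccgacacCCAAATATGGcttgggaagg
The Acta2 boxes lie upstream of the RefSeq start but inside the first exon of the longest Acta2 transcript in the GENCODE annotation. The printed Actc1 box also lies inside the annotated span of its gene given above, and the printed Acta1 box lies outside that of Acta1. Further boxes 1 base off, 3 in Actc1 and 2 in Acta1, are not printed. A match to the letters is a description of the window. It does not show that a factor binds there.

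The samples held between 2140 and 6648 cells and between 96808998 and 122746184 UMIs (unique molecular identifiers, each standing for 1 captured transcript), with median depths between 16453 and 47373 UMIs per cell. Levels below are in CPM, counts scaled to the total UMIs of the cells of a type summed within a sample, given as mean ± SD over samples. The kit reads the 3′ ends of transcripts, so that values were not scaled for transcript length and levels of different genes were compared only where stated. Dram2 itself was at 33.4, 39.6 and 38.1 CPM in wt/wt samples and at 30.7, 28.3 and 30.1 CPM in ko/ko samples, lower in all 3 ko/ko samples. Reads at the 3′ end lie outside the deleted exon, so this level does not check the labels. The cells were grouped as in the deposited annotation, into 8 cell types and 9 sub-clusters of the fibroblast types, all of them made from expression, so differences between them are descriptions with no test. The type called Pericyte held 179 ± 36 CPM of Sox10 and 407 ± 81 CPM of Ngfr, genes of neural crest and glial cells, against 0.0476 and 0.219 CPM in Fibroblast, levels that go against its name. Its mural cell markers were mixed. Rgs5 was at 7.79 against 67.1 CPM in Fibroblast and Kcnj8 and Abcc9 were at or near 0, but Cspg4 was at 199 against 37.5 CPM and Mcam at 294 against 62.5 CPM, and the list of 10, of which 6 had a UMI, summed to 532 against 272 CPM. Its Acta2 was the lowest of the 8 types. The 4 endothelial markers summed to 2146 CPM in Endothelial cells against 13 CPM in Fibroblast, and the 4 myeloid markers to 11288 CPM in Myeloid cells against 7.26 CPM. The Fibroblast-like type had a median of 4825 UMIs per cell against 26108 in Fibroblast. One sample, ko/ko 3, was the only one of a second batch.

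Of the members, Tagln, Des and Acta1 shared the most sequence with other genes. Over the last 400 bases of its transcripts, 65.1% of the 31-base words of Tagln also occur in Pcsk7 or Gm48529, which overlap it on the opposite strand. For Des the share was 17.3%, with the antisense gene Gm15179, and for Acta1 it was 8.51%, mostly with Actb, Actg1 and their pseudogenes. For Mylk it was 5.68%, with E130310I04Rik on the opposite strand, for Actg2 1.97% and for Actc1 0.311%. Because the sources used here do not state whether strand entered the counting, the levels of these genes are less certain than those of Acta2, Myh11, Cnn1 and Lmod1, which shared no word. Lmod1 is overlapped by Gm22796 on the opposite strand.

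Acta2 UMIs were counted in every annotated type, and the level was highest in Fibroblast-like and Fibroblast cells. Acta2 was at 10916, 10407 and 10610 CPM in Fibroblast cells of the wt/wt samples and at 10325, 11852 and 12316 CPM in those of the ko/ko samples, 11071 ± 824 over all (n = 6). The samples of the genotypes overlapped. Fibroblast-like cells stood above all other types, at 14009 ± 1340 CPM, and the lowest of their samples, 12707 CPM, was above the highest Fibroblast sample. Fibroblast proliferating cells followed at 8772 ± 421 CPM, again with no overlap with Fibroblast. Myeloid (6433 ± 1343, n = 4) overlapped with Fibroblast proliferating, RPE (5807 ± 2258) with Myeloid, and Fibroblast 2 (5095 ± 998) with RPE. Fibroblast 2 did not overlap with Endothelial cells, the next type in order. Endothelial and Pericyte cells were lowest, at 1972 ± 827 and 1732 ± 964 CPM, and did not differ beyond their spread. The 6 fibroblast markers were also present in the types not named as fibroblasts. They summed to 3101 CPM in Myeloid cells (1676 to 4494 over samples), 1102 CPM in Endothelial cells, 637 CPM in RPE and 5743 CPM in Pericyte, against 4967 CPM in Fibroblast, and their part in the members' levels there was not tested. In Pericyte most of the sum was Col1a2 (3682 CPM) and Col1a1 (1729 CPM). The other markers were lower there than in Fibroblast. Dcn was at 51.8 against 580 CPM and Lum at 2.61 against 83.9 CPM. Pdgfra was at 6.36 against 53.6 CPM and Mgp at 271 against 2931 CPM.

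Tagln, the most abundant member after Acta2, had a flatter profile. It ranged from 10859 ± 1243 CPM in Fibroblast-like and 9121 ± 1071 CPM in Fibroblast to 2940 ± 872 CPM in Endothelial cells, and each type overlapped with the next in the order. RPE cells, at 7446 ± 1818 CPM, and Fibroblast 2, at 6150 ± 1218 CPM, held more Tagln than Acta2, counting UMIs without scaling for length. Set against Acta2 in the same cells, Tagln was 82.4 ± 7.9% in Fibroblast, 121 ± 14% in Fibroblast 2, 135 ± 31% in RPE, 173 ± 92% in Endothelial cells and 331 ± 256% in Pericyte, where it ranged from 133 to 828%.

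**Figure D1:**
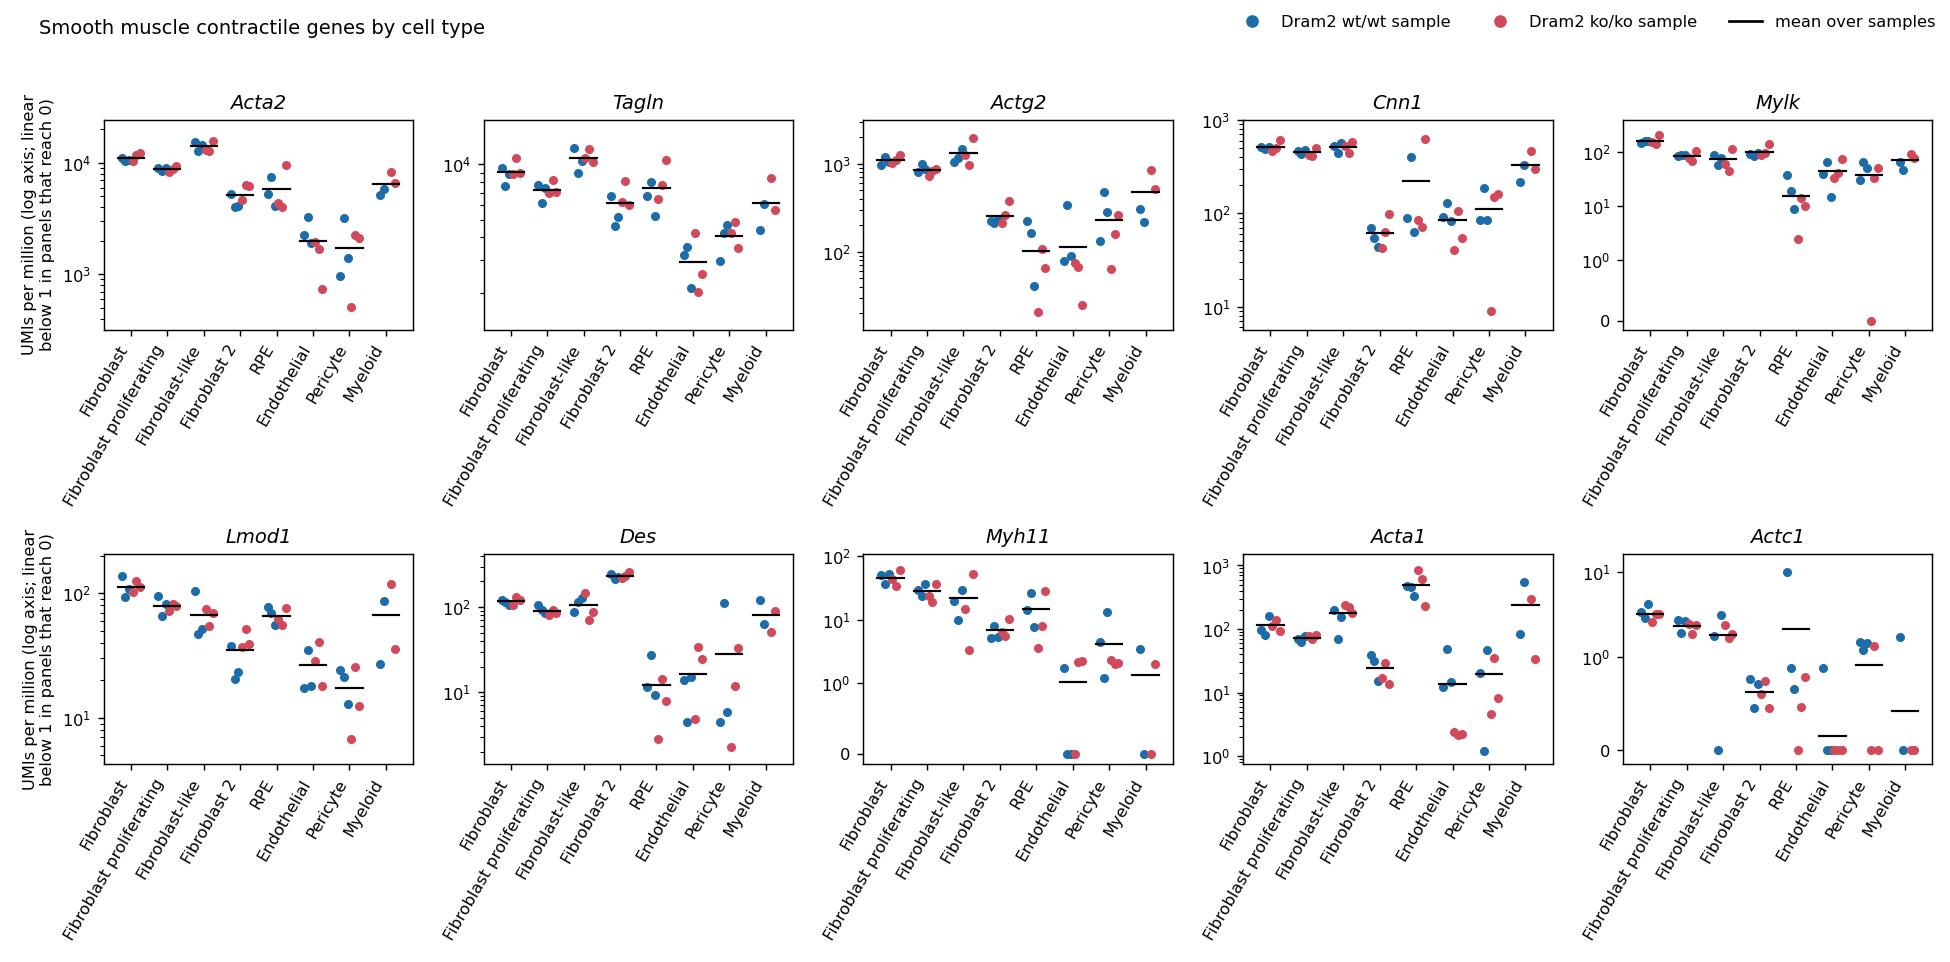
Level of each of the 10 genes in the 8 annotated cell types, in CPM of the UMIs summed per sample and type, on log axes (an axis that holds 0 is linear near 0). Each point is a sample, coloured by genotype, and each bar is the mean. Acta1 is highest in RPE and Des in Fibroblast 2.

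The other members differed in their order over cell types. Actg2 and Cnn1 were highest in the same 3 types as Acta2, with Actg2 at 1303 ± 358 CPM in Fibroblast-like, 1090 ± 103 in Fibroblast and 842 ± 91 in Fibroblast proliferating, and Cnn1 at 514 ± 62, 514 ± 50 and 452 ± 36 CPM in the same types. Both were much lower in Fibroblast 2, at 252 ± 61 and 61.9 ± 20.7 CPM. Unlike Acta2, Actg2 had its lowest mean in RPE (103 ± 77 CPM) and Cnn1 in Fibroblast 2. Mylk, Lmod1 and Myh11 were highest in Fibroblast, at 158 ± 24, 113 ± 16 and 45.7 ± 9.8 CPM. Myh11, regarded as the most restricted marker of differentiated smooth muscle, was at 6.74 ± 2.04 CPM in Fibroblast 2 and at 1.03 CPM in Endothelial cells, where it overlapped with Myeloid and Pericyte. Actc1 was near the limit of detection everywhere, at 3.22 ± 0.53 CPM in Fibroblast, its highest type.

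Fibroblast 2 differed from Fibroblast in opposite directions for different members. In all 6 samples it held less Acta2 (2.20-fold lower), less Tagln (1.5-fold), less Actg2 (4.4-fold), less Myh11 (6.88-fold) and less Cnn1 (8.63-fold) than the Fibroblast cells of the same sample. With the median cell in place of the sum, the log2 ratio was -2.48 for Acta2 and -1.29 for Tagln, against -1.14 and -0.58 from the sums. Des went the other way. Its level in Fibroblast 2 was 231 ± 15 CPM, with samples from 217 to 256 CPM, against 116 ± 10 CPM in Fibroblast, with samples from 105 to 132 CPM, and it was 1.99-fold higher in 6 of 6 samples. The Fibroblast 2 samples of Des thus lay above every sample of every other type.

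In RPE cells Acta1 was higher than in Fibroblast, and Actg2 was lower. Acta1 was at 476, 457 and 326 CPM in the RPE cells of wt/wt samples and at 840, 609 and 230 CPM in those of ko/ko samples, against 114 ± 30 CPM in Fibroblast. Its RPE samples overlapped with those of Myeloid cells (242 ± 237 CPM), the next type in order. Acta1 was 4.06-fold higher in RPE than in Fibroblast in 6 of 6 samples, and RPE cells, 5.87% of all cells, held 20.5% of all Acta1 UMIs. Actg2, Mylk and Des were 14.1-fold, 13.7-fold and 11.8-fold lower in RPE than in Fibroblast, also in 6 of 6 samples. For Mylk the log2 ratio was -3.77, and -5.24 without the cells of highest doublet score. The skeletal muscle markers, 20 genes of which 14 had a UMI in RPE, summed to 7.71 CPM there against 19.3 CPM in Fibroblast. The 9 cardiac markers went the other way, at 11 against 3.89 CPM.

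The RPE values of several members turned on 2 samples. Cnn1 in RPE was at 89.4, 402 and 62.6 CPM in wt/wt and at 84.6, 71.1 and 627 CPM in ko/ko, so that wt/wt 2 and ko/ko 3 stood far above the rest. The same samples held the most cells annotated as RPE, 539 and 575 against 56 to 152 in the others, and the lowest sums of 7 RPE markers, 507 and 295 CPM against 871 to 1109 CPM. Most of the RPE marker sum was Krt18, with a mean of 710 CPM over samples of a mean sum of 821 CPM. Otx2 was at 87.4 CPM and Rpe65 at 0.693 CPM. The Acta2 of wt/wt 2 and ko/ko 3, at 7485 and 9581 CPM, was also above the 4029 to 5273 CPM of the other 4. The sum of 6 fibroblast markers in RPE cells was 1166 CPM in wt/wt 2 and 520 CPM in ko/ko 3, against 344 to 662 CPM in the others, so only wt/wt 2 stood out by it. The part of these markers in the Cnn1 and Acta2 values was not tested.

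Within the fibroblast types, sub-clusters separated the members further. Sub-cluster 1, 9965 cells of which 97.6% were annotated Fibroblast, is the reference used here. Sub-cluster 5, mostly Fibroblast-like, had the highest mean Acta2, 16386 ± 2104 CPM, and the highest mean Tagln, 12956 ± 1134 CPM. Its Tagln samples overlapped with those of sub-cluster 1. These levels are relative to the UMIs of cells with a median of 5856 UMIs, against 27032 in sub-cluster 1. Sub-cluster 4, 1558 cells of which 99.0% were annotated Fibroblast, had low levels of most members. Its Acta2 was at 1773 ± 237 CPM against 12215 ± 1049 CPM in sub-cluster 1, which is 6.93-fold lower in 6 of 6 samples, and its Tagln was 5.14-fold lower. The median cell gave a larger difference than the sums, with log2 ratios of -3.92 for Acta2 and -3.12 for Tagln against -2.79 and -2.36. Sub-cluster 4 held 2.36 CPM of Myh11 and 52.9 ± 18.1 CPM of Cnn1. Among 10 mural cell markers, with 9 detected, Rgs5 was at 326 ± 53 CPM in sub-cluster 4 against 33.1 ± 8.6 CPM in sub-cluster 1, and the whole list summed to 527 against 221 CPM. Most of the difference in the sum was Rgs5. Notch3, a receptor of mural cells, was at 48.9 ± 2.8 against 9.32 ± 2.27 CPM, with no overlap between these 2 sub-clusters, and Ndufa4l2 (4.37 against 0.581 CPM) and Cspg4 (47.8 against 36.2 CPM) also had higher means in sub-cluster 4. Mcam (30.4 against 64.7 CPM) and Pdgfrb (67.5 against 76.9 CPM) had lower means there. The defining mural markers Kcnj8 and Abcc9 were at 0.589 and 0.748 CPM in sub-cluster 4, against 0.324 and 0.251 CPM.

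Sub-cluster 7 had the highest levels of Myh11, Des, Mylk and Lmod1 among the sub-clusters. It was small, 214 cells or 0.842% of all, with 53, 13 and 21 cells in the wt/wt samples and 26, 79 and 22 in the ko/ko samples. Myh11 was at 332, 302 and 450 CPM in wt/wt and at 273, 264 and 288 CPM in ko/ko, 318 ± 69 over all, against 48.5 ± 12.2 CPM in sub-cluster 1. Every sample of sub-cluster 7 was above every sample of the other 8 sub-clusters. Des was at 685, 766 and 668 CPM in wt/wt and at 678, 688 and 854 CPM in ko/ko, against 102 ± 10 CPM, and it too overlapped with no other sub-cluster. In fold terms, Des was 7.07-fold, Myh11 6.62-fold, Mylk 3.06-fold (477 ± 76 against 157 ± 31 CPM) and Lmod1 1.90-fold (236 ± 38 against 124 ± 15 CPM) higher than in sub-cluster 1, each in 6 of 6 samples. For Mylk the log2 ratio was 1.61 from the sums and 2.78 for the median cell.

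The abundant members did not set sub-cluster 7 apart. Acta2 was at 11928 ± 1229 CPM against 12215 ± 1049 CPM in sub-cluster 1, a mean log2 ratio of -0.04 ± 0.10 (SD, n = 6), higher in 1 sample and lower in 5. Cnn1 was lower, at 305 ± 45 against 590 ± 68 CPM with no overlap. Acta1 was at 98.8 CPM in ko/ko 2 and at 3.4 to 15.4 CPM in the other 5 samples, so that its mean of 21.8 CPM rested on 1 sample.

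Some other markers of the contractile state, none of them members, were also high in sub-cluster 7. Kcnmb1, the smooth muscle beta subunit of the large-conductance potassium channel, was at 80.7 ± 17.8 CPM against 2.95 CPM in sub-cluster 1 (27.6-fold, 6 of 6 samples). Ppp1r14a, an inhibitor of myosin phosphatase, was at 493 ± 74 CPM against 128 CPM. The 7 smooth muscle markers beyond the members summed to 676 CPM against 203 CPM in sub-cluster 1, and most of the 676 CPM was Ppp1r14a. Hspb6 was not higher than in sub-cluster 1 (29.3 against 30.4 CPM). Smtn (61.9 against 38.4 CPM), Synpo2 (6.07 against 3.53 CPM), Casq2 and Pln had higher means than there. Smtn in sub-cluster 2 (63.7 CPM) and Synpo2 in sub-cluster 3 (8.67 CPM) had means above those of sub-cluster 7. The 10 mural cell markers, of which 9 were detected, summed to 986 against 221 CPM in sub-cluster 1. Of the defining mural markers, Kcnj8 was at 15.2 ± 6.9 and Abcc9 at 8.23 ± 4.91 CPM, against 18.5 ± 4.7 and 6.17 ± 1.98 CPM in sub-cluster 3. Other markers of the list had higher means in sub-cluster 7 than in sub-cluster 3, with Ndufa4l2 at 98.1 ± 65.6 against 2.00 CPM, Cspg4 at 142 against 18.6 CPM and Pdgfrb at 333 against 119 CPM, and the mean of Ndufa4l2 was 4.37 CPM or less in each of the other sub-clusters. The mural sum was 704 CPM in sub-cluster 6 and 527 CPM in sub-cluster 4. The fibroblast markers summed to 15304 against 4455 CPM in sub-cluster 1, and most of that sum was Mgp (13469 against 2494 CPM). Col1a1 (890 against 705 CPM) and Col1a2 (716 against 688 CPM) also had higher means. Dcn (205 against 468 CPM), Lum (11.9 against 46.7 CPM) and Pdgfra (12.6 against 52.9 CPM) had lower means. With its fibroblast markers mixed, sub-cluster 7 is called here by its number.

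**Figure D2:**
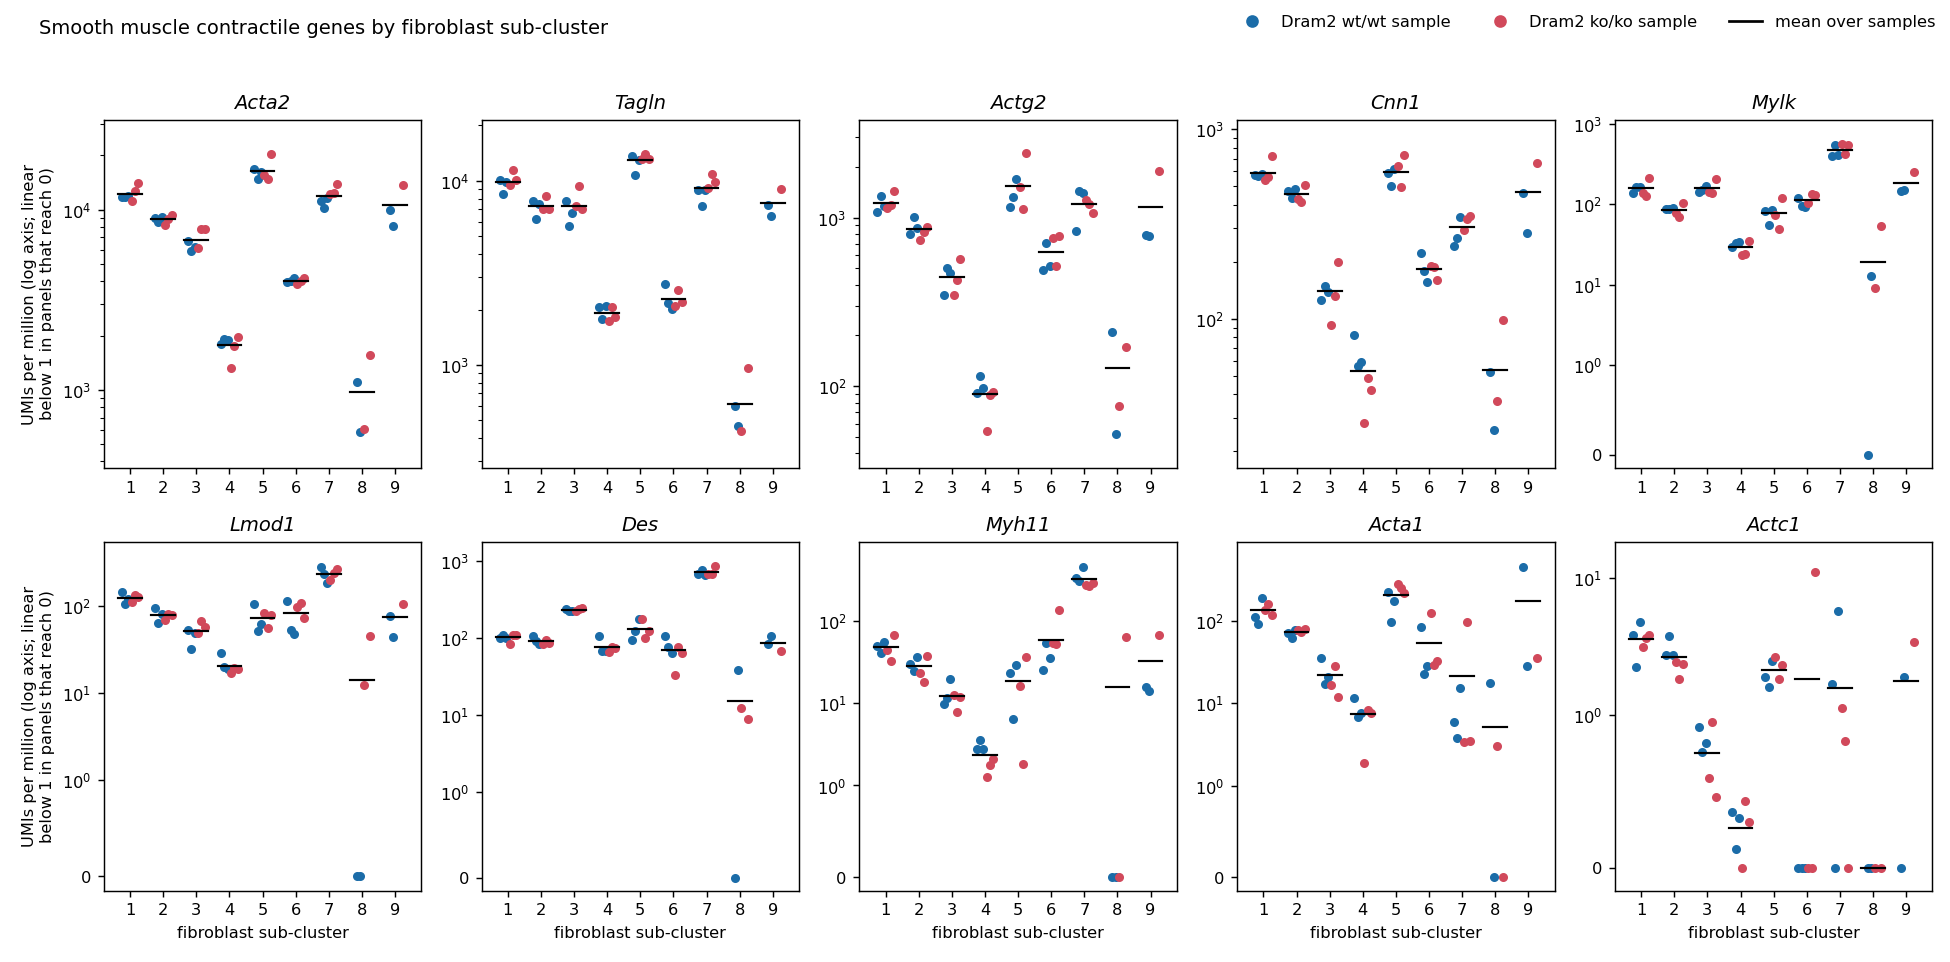
Level of the 10 genes in the fibroblast sub-clusters, in CPM summed per sample and sub-cluster, on log axes (an axis that holds 0 is linear near 0), with a point per sample coloured by genotype and a bar at the mean. Myh11, Des, Mylk and Lmod1 are highest in sub-cluster 7, and Acta2 and Tagln are highest in sub-cluster 5 and low in sub-cluster 4.

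Pooled over the 6 samples, sub-cluster 7 held 6.17% of all Myh11 UMIs, 4.33% of Des and 2.65% of Mylk, but 0.876% of Acta2, close to its 0.842% share of the cells. Most Myh11 UMIs therefore lay outside it. Sub-cluster 3, 14.9% of the cells and 78.2% of them annotated Fibroblast 2, held 27.5% of the Des UMIs.

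At the level of single cells, depth was equalised by drawing 4000 UMIs per cell. This left out 552 cells with fewer, 219 of wt/wt and 333 of ko/ko. At that depth a UMI of Acta2 was found in 96.8 ± 1.1% of Fibroblast cells (99.8% without thinning), and in 98.9% of sub-cluster 1. It was also found in 85.4% of Myeloid and 69.8% of Endothelial cells, with median depths of 16550 and 9263 UMIs against 26108 in Fibroblast. The source of the Acta2 UMIs in these 2 types was not tested. A single Acta2 UMI was thus common in all of these types, and amounts are used below. Myh11 behaved differently. Its share was 48.2 ± 5.1% in sub-cluster 7 and 10.4 ± 2.1% in sub-cluster 1 (76.2% and 25.2% without thinning), against 0.187% in Endothelial and 1.72% in Myeloid cells.

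Des, Mylk and Kcnmb1 showed the same order of shares. Des was found in 85.9 ± 9.9% of the cells of sub-cluster 7 and in 21.9 ± 0.9% of those of sub-cluster 1, Mylk in 73.2 ± 4.0% and 32.0 ± 4.5%, and Kcnmb1 in 24.7 ± 9.9% and 1.2 ± 0.55%. Of the 212 cells of sub-cluster 7 deep enough to be thinned, 104 held a UMI of Myh11, of which 84 also held Des and 28 also Kcnmb1. Of 9919 such cells in sub-cluster 1, 995 held Myh11, of which 347 also held Des and 35 also Kcnmb1. Cells with Myh11 were thus more numerous in sub-cluster 1 than in sub-cluster 7, as were those that also held Des or Kcnmb1, and no test was made of the shares.

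The amount of Acta2 per cell spanned a wide range. Scaled to 10000 UMIs, the median Fibroblast cell held 85, 75 and 77.5 Acta2 UMIs in wt/wt and 72.5, 87.5 and 82.5 in ko/ko. The cell at the 5th percentile held 2.5 in each sample and the cell at the 95th between 275 and 331, with a coefficient of variation between 0.836 and 0.994. The median was 129 in sub-cluster 5, 101 in sub-cluster 7, 94.8 in sub-cluster 1, 70.0 in sub-cluster 2, 27.9 in sub-cluster 3 and 7.08 in sub-cluster 4. In Fibroblast 2 it was 15.8, with the 95th percentile between 128 and 185, so that its highest cells lay above the median Fibroblast cell. The median Endothelial cell held 2.92, about 1 UMI at the thinned depth.

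**Figure D3:**
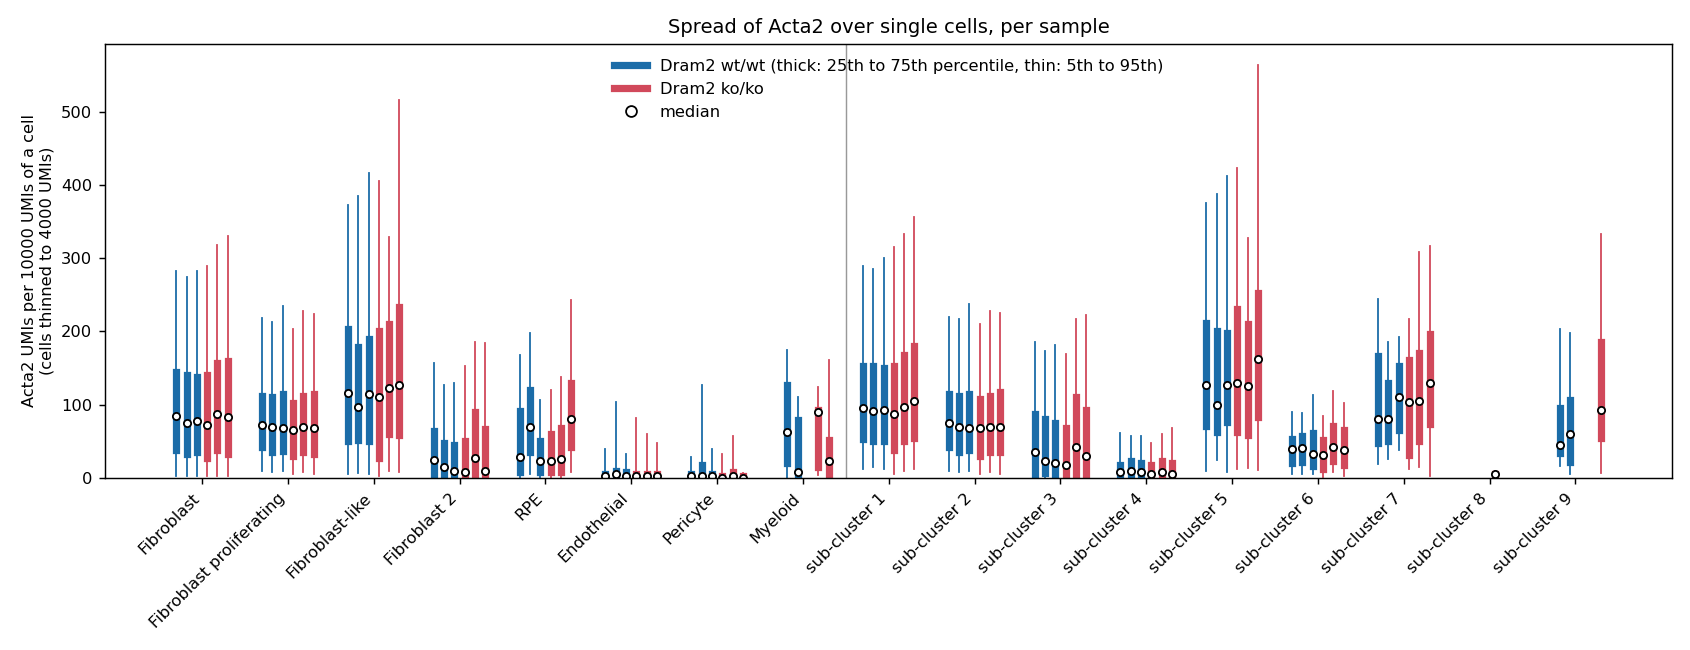
Acta2 per cell, scaled to 10000 UMIs after thinning each cell to 4000, in the annotated cell types and fibroblast sub-clusters. White points are the medians of the samples. Lines are coloured by genotype, the thin ones from the 5th to the 95th percentile and the thick ones from the 25th to the 75th. Fibroblast medians lie between 72.5 and 87.5 in the 6 samples, and those of Fibroblast 2 between 7.5 and 27.5.

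Across Fibroblast cells of a sample, Acta2 and Tagln moved together. Spearman's rho over cells, at 4000 UMIs each, had a median of 0.84 over the 6 samples, with a range from 0.82 to 0.87, and in RPE it was 0.74. For Acta2 with Actg2 and with Cnn1 it was 0.64 in both cases, with Mylk 0.40, with Lmod1 0.39 and with Myh11 0.33. Des stood apart from the actin and its partners, at 0.14, below Acta1 at 0.20. Actc1 was at 0.07, with a UMI in 0.849% of cells. The cells of a sample share a library and a depth, and the sparse members can only give low values, so these are descriptions with no p.

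**Figure D4:**
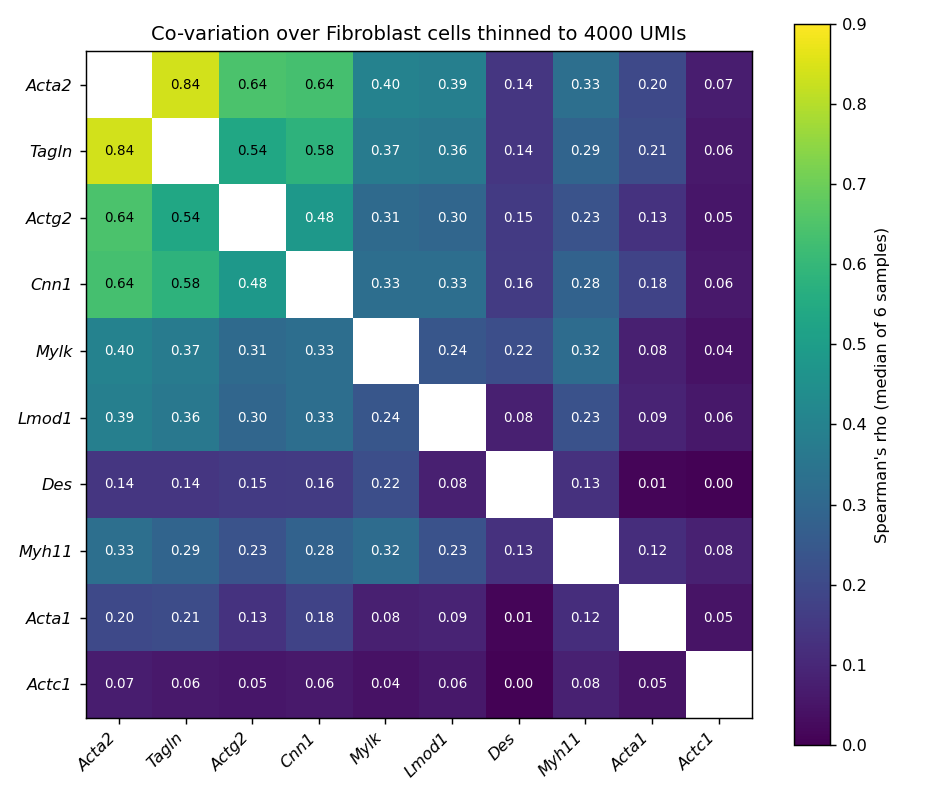
Spearman correlation of each pair of the 10 genes over the Fibroblast cells of a sample, thinned to 4000 UMIs, as the median of the 6 samples. The pair of Acta2 and Tagln is highest at 0.84, Actg2 and Cnn1 join them at 0.64 with Acta2, and Des stays low.

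Over the 46 sums of a sample and a cell type, the genes whose log2(CPM + 1) was most like that of Acta2, of 9032 genes compared, were Bag2 (Pearson's r = 0.88), Siglecg (0.87), Tagln (0.87), Prrx2 (0.86) and Pdlim2 (0.86). Among the members, Lmod1 was at 0.83, Cnn1 at 0.82, Actg2 at 0.76, Acta1 at 0.65, Des at 0.63, Myh11 at 0.63 and Mylk at 0.53, with Actc1, too low to enter the comparison, at 0.52. The genes most like Myh11, of 11038 compared, were Nexn (0.79), Dnpep (0.77), Fam149a (0.76), Ppbp (0.75) and Sh3bgr (0.75), and among the members over the 5 CPM needed the nearest was Tagln at 0.66. Actc1, with a mean of 1.49 CPM, was at 0.75. The sums come from 6 libraries and differ in depth.

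The members' levels were then compared between the genotypes, the question for which the samples were collected. In whole-sample sums, where fewer cells of a type and less RNA per cell cannot be told apart, no member was called at an adjusted p under 0.05 by voom-limma, by edgeR or by DESeq2, and of all 22580 genes 0%, 0% and 1.67% were called by the 3 tools. None of the 10 reached an unadjusted p under 0.05 there, which 7.01% of all genes did, and the samples of the genotypes overlapped for each member, against 11.5% of genes without overlap. Tagln was at 8519, 7001 and 8105 CPM in wt/wt and at 7877, 9570 and 8418 CPM in ko/ko, a log2 fold change of 0.15. Acta2 was at 9403, 9060 and 9497 CPM in wt/wt and at 8644, 9902 and 10575 CPM in ko/ko, a log2 fold change of 0.07. The median log2 fold change of the members was 0.0021 and that of all genes 0.0046.

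Within Fibroblast cells the result was the same in kind. No member was called by voom-limma, by edgeR or by DESeq2, against 0.00503% of 19886 genes called by voom-limma, 0.00503% by edgeR and 1.61% by DESeq2, and no member had an unadjusted p under 0.05 (7.18% of genes) or genotypes without overlap (11.6% of genes). The log2 fold change ± SE of ko/ko over wt/wt was 0.14 ± 0.13 for Tagln and 0.11 ± 0.10 for Acta2, with adjusted p = 0.934 for both in voom-limma. For Myh11, at 50.1, 36.4 and 51.5 CPM in wt/wt and 43.4, 33.5 and 59.5 CPM in ko/ko, it was -0.05 ± 0.21. The remaining members lay between -0.22 ± 0.18 (Actc1) and 0.08 ± 0.14 (Mylk). The direction was positive for 8 of the 10, with a median of 0.07 against -0.01 for all genes. Without ko/ko 3, the sample of the second batch, the log2 fold change of Acta2 was 0.07 and that of Tagln 0.20.

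Single-cell readouts in Fibroblast at 4000 UMIs gave no separation either. The median Acta2 per cell, scaled to 10000 UMIs, was 79.2 ± 5.2 in wt/wt and 80.8 ± 7.6 in ko/ko (exact permutation test, two-sided, p = 0.9), and that of Tagln 70.8 ± 10.1 and 78.3 ± 12.3 (exact p = 0.6). The share of cells with a UMI of Acta2 was 97.5 ± 0.4% and 96.1 ± 1.2%, of Myh11 9.40 ± 1.38% and 10.2 ± 2.0%, and of Des 23.5 ± 1.2% and 25.6 ± 0.9%. Over the 10 members the exact permutation p was 0.2 or more (adjusted 0.667 or more). With 3 samples against 3 the smallest exact p is 0.1, so these tests could not pass 0.05. Shares of 2 members did not overlap between genotypes at 8000 UMIs and of 1 without thinning. Shares were taken for the members alone, so there is no value over all genes to set beside these counts.

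Over 17 units, the whole sample, 8 cell types and 8 sub-clusters, 146 tests of a member could be made by voom-limma and none was called. Sub-cluster 9 had too few samples. The smallest adjusted p was 0.135, and 80 of the tests had a higher and 66 a lower level in ko/ko. An unadjusted p under 0.05 was seen in 13 of the 146, or 8.90%, against 6.39% of the 203703 gene tests in the same units. The units share cells, since the whole sample holds every type and the sub-clusters divide the fibroblast types again. The 146 tests are therefore not independent of each other. By edgeR no member was called in any unit, and by DESeq2 1 was, Cnn1 in sub-cluster 4. The share of all genes called by voom-limma was 0.624% in Fibroblast proliferating, 0% in Fibroblast-like, 0.222% in Fibroblast 2, 0% in RPE, 0% in Endothelial, 0.0118% in Pericyte and 0.0296% in Myeloid cells, the last with 2 samples against 2. In sub-clusters 1 to 8 it was 0.32%, 0.55%, 0.00634%, 0.722%, 0%, 0%, 0.402% and 0%.

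Samples of the genotypes did not overlap for 3 of 8 members in sub-cluster 7, against 12.3% of genes there. Acta2 was at 11189, 10236 and 11601 CPM in wt/wt and at 12279, 12414 and 13847 CPM in ko/ko (log2 fold change 0.25 ± 0.13, adjusted p = 0.750 in voom-limma). Tagln was at 0.29 ± 0.14 on the same scale (adjusted p = 0.704 in voom-limma) and Myh11 at -0.36 ± 0.17, and none of the 3 was called. Of the 8 members tested there, 7 had a positive log2 fold change, with a median of 0.16 against 0.00079 for all genes. Markers of other cells were also shifted in sub-cluster 7, with 4 of 5 fibroblast markers positive (median 0.56, 3 at an unadjusted p under 0.05) and 7 of 7 mural markers positive (median 0.39), and none called. Their part in the members' values was not tested. Without overlap were also 3 of 8 members in Myeloid cells (33.7% of genes, 2 samples against 2), 1 of 6 in Endothelial cells (10.5%) and 1 of 10 in sub-cluster 2 (11.6%).

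The 13 tests with an unadjusted p under 0.05 included 3 in sub-cluster 4, the fibroblasts with little Acta2. Cnn1 there was at 82.0, 56.2 and 59.4 CPM in wt/wt and at 28.2, 49.0 and 42.3 CPM in ko/ko, with no overlap, a log2 fold change of -0.74 ± 0.20 with adjusted p = 0.177 in voom-limma. Myh11 was at 2.76, 3.56 and 2.74 CPM against 1.26, 1.77 and 2.08 CPM, also with no overlap (-0.78 ± 0.33, adjusted p = 0.685). Of the 9 members tested in sub-cluster 4, these 2 had genotypes without overlap, against 11.1% of all genes there, and Actg2 was at -0.41 ± 0.18. The log2 fold changes of all 9 were negative, with a median of -0.25 against 0.01 for all genes. For Cnn1 the call depended on the method, since DESeq2 gave an adjusted p of 0.0295. Of all genes tested in sub-cluster 4, DESeq2 called 1.21% and edgeR 0.613%.

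Elsewhere the 13 pointed both ways. Acta2 and Lmod1 in Fibroblast 2 were at 0.37 ± 0.16 and 0.62 ± 0.23. Of the 9 members tested in Fibroblast 2, 8 were positive, with a median of 0.26 against -0.01 for all genes, as were 27 of 39 tested genes from a list of actin-myosin partners (median 0.10). Acta2 and Actg2 in Endothelial cells were at -0.81 ± 0.31 and -1.25 ± 0.55, where 2 of 6 members were positive (median -0.31). Of the fibroblast markers in Endothelial cells 1 of 4 was positive (median -0.74) and of the endothelial markers 2 of 4 (median -0.02), none of them called, and their part in the members' values was not tested. Actg2 in Myeloid cells was at 1.35 ± 0.28, where 6 of 8 members were positive (median 0.44). In voom-limma the last, from 2 samples against 2, was called without the low-count filter (adjusted p = 0.000546), a fit whose share of all genes called is not given here. Acta1 was at 0.69 ± 0.29 in Fibroblast-like and 0.59 ± 0.22 in sub-cluster 5. Myh11 was at -0.36 ± 0.17 in sub-cluster 7 and at 1.22 ± 0.37 in sub-cluster 6, whose cells had a median of 21.0% mitochondrial UMIs. Its levels in sub-cluster 6 were 25.1, 53.2 and 35.1 CPM in wt/wt and 53.8, 51.6 and 133 CPM in ko/ko, with the highest in ko/ko 3, the sample of the second batch. The part of mitochondrial content in the latter was not tested. Actc1 in sub-cluster 2 was at -0.48 ± 0.20.

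Of these 13 values, 8 moved by over 1.5 times when 1 sample was left out. Without ko/ko 3 the log2 fold change was 0.62 for Myh11 in sub-cluster 6, and -0.38 for Acta2 and -0.75 for Actg2 in Endothelial cells. Without wt/wt 2 it was -0.66 for Actg2 in Endothelial cells, 0.32 for Acta1 in Fibroblast-like and 0.30 for Acta1 in sub-cluster 5. It was 0.97 for Lmod1 in Fibroblast 2 without wt/wt 1, -0.18 for Myh11 in sub-cluster 7 without wt/wt 3 and -0.16 for Actg2 in sub-cluster 4 without ko/ko 1. The direction stayed the same in each.

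The genotype effect on Actg2 differed between Fibroblast proliferating and Fibroblast cells. Actg2 in Fibroblast proliferating, as a ratio to Actg2 in Fibroblast of the same sample, was 0.819, 0.841 and 0.830 in wt/wt and 0.709, 0.751 and 0.696 in ko/ko. The ratio was below 1 in all 6 samples and lower in all 3 ko/ko samples than in any wt/wt sample, 0.718 ± 0.028 against 0.830 ± 0.011. The test of the difference, over all 19755 genes with each sample as a term, gave a log2 difference of -0.21 with adjusted p = 0.0108 in voom-limma. It was 1 of 2 genes called, 0.0101% of those tested. By edgeR the adjusted p was 0.0738, with 0.00506% of genes called, so this call rests on 1 of the methods, and without 1 sample at a time it ranged from 0.0127 to 0.112. The ratio between sub-clusters 2 and 1, the latter with 9727 of the 12651 Fibroblast cells, was 0.748, 0.750 and 0.742 in wt/wt and 0.645, 0.688 and 0.610 in ko/ko.

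Of the 10 members, 8 had a lower ratio in ko/ko on the log2 scale and 7 an unadjusted p under 0.05, all 7 of them lower, against 3.72% of all genes at that p. Apart from Actg2 none was called. The 10 tests share their cells and are not independent of each other. The ratio of Acta2 was 0.819, 0.806 and 0.848 in wt/wt and 0.792, 0.743 and 0.758 in ko/ko (log2 difference -0.12, adjusted p = 0.381 in voom-limma). That of Des was 0.875, 0.820 and 0.799 against 0.769, 0.702 and 0.701 (-0.21, adjusted p = 0.762). Between sub-clusters 2 and 1 the genotypes overlapped for Acta2, Tagln, Mylk and Des, with Des at 1.06, 0.834 and 0.838 in wt/wt and 0.994, 0.866 and 0.795 in ko/ko. In the comparisons of the other 6 types with Fibroblast, voom-limma called 0% of all genes and no member. By edgeR 3 members were called in Endothelial cells (Acta1, Acta2 and Actg2), 2 in Pericyte (Actg2 and Des) and 1 in Myeloid cells (Actg2), where it called 0.205%, 0.208% and 0.138% of all genes. Acta1 in Endothelial cells and Des in Pericyte did not pass the expression filter in those types alone. They entered these tests because the filter was applied to the sums joined with Fibroblast. They rested on 49 and 138 UMIs there, with Des at 111 CPM in wt/wt 2 and at 33.0 CPM or less in the other samples. At an unadjusted p under 0.05 in voom-limma there were 4 members in Fibroblast 2, 1 each in RPE, Endothelial and Myeloid cells, and none in Fibroblast-like and Pericyte, against 5.13%, 1.86%, 6%, 5.8%, 3.94% and 4.51% of all genes in that order. The member in Endothelial cells was again Acta1.

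**Figure D5:**
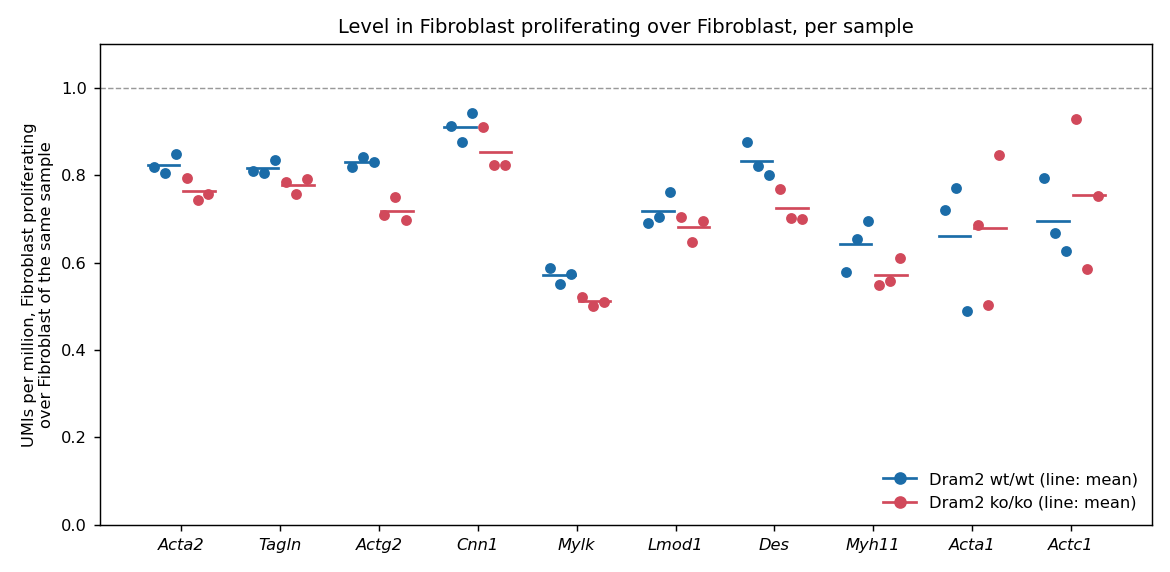
Ratio of the level in Fibroblast proliferating to that in Fibroblast of the same sample for the 10 genes, a point per sample coloured by genotype and a bar at the mean. For Actg2 the ko/ko samples lie between 0.696 and 0.751 and the wt/wt samples between 0.819 and 0.841.

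The wider pathway was examined through 3 lists, 42 actin-myosin partners, 23 regulators and 20 matrix and TGF-beta or SRF target genes of the myofibroblast. Over the 17 units none of their 1219 tests was called by voom-limma, 63 (5.17%) had an unadjusted p under 0.05, and the smallest adjusted p was 0.0733, for Col3a1 in sub-cluster 5. In sub-cluster 5, 7 of the 16 matrix genes tested had an unadjusted p under 0.05 (7.48% of all genes), and none of the 16 was positive, with a median log2 fold change of -0.42. In sub-cluster 7 it was 6 of 18 (7.22% of all genes), with 15 positive and a median of 0.27, and no matrix gene was called in either. In Fibroblast, 40 partners, 23 regulators and 20 matrix genes were tested, of which 18, 8 and 7 had a positive log2 fold change and none was called.

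Several partners were abundant in Fibroblast cells. Cald1 (caldesmon) was at 3849 CPM, Tpm1 and Tpm2 (tropomyosins) at 3376 and 2019 CPM, Myl9 (the regulatory light chain that Mylk phosphorylates) at 885 CPM, Vcl (vinculin) at 214 CPM and Smtn (smoothelin) at 37.4 CPM. Their log2 fold changes lay between -0.06 and 0.07. Of the transcription factors, Srf was at 42.6 CPM and its cofactors Mrtfa and Mrtfb at 44.5 and 22.8 CPM, with log2 fold changes of -0.06, -0.11 and 0.04. Myocd, which encodes myocardin, the cofactor restricted to muscle, was at 0.63 CPM with a log2 fold change of 0.13. The adjusted p of all 10 was 0.934 or more in voom-limma. Myocd was at 4.45 ± 3.01 CPM in sub-cluster 7, on 19 UMIs in all, and at 0.611 ± 0.105 CPM in sub-cluster 1.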

How the data were processed

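Single-cell libraries of cultured RPE/choroid cells were made with the Chromium 3′ kit, version 2. The authors deposited raw UMI counts per gene and cell, made with Cell Ranger 3.1.0 on GRCm38 per the submitters' processing notes, with only exons counted per the methods. Cell types and fibroblast sub-clusters are those of the deposited annotation, made by the authors with Seurat after integration by batch. The gene annotation release and the use of strand in counting are not given in the sources used here.

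Counts were summed per sample and cell type or sub-cluster where a sample held 10 or more cells, and groups needed 2 samples per genotype. Genotypes were compared across all genes with voom-limma (limma 3.58.1, R 4.3.3) after TMM scaling and edgeR's expression filter, with Benjamini-Hochberg adjustment over all genes and a threshold of 0.05. Differences of the genotype effect between cell types were fitted with a term for each sample. edgeR 4.0.16 (quasi-likelihood), DESeq2 1.42.0, other scalings, no filter, batch or replicate number as a term, filters on cells and leaving out each sample were the alternatives. The main voom-limma fit was tested on counts simulated from the Fibroblast sums, with planted changes larger than those of the members in Fibroblast. The other fits and units were not tested in this way. Shares, medians and correlations over cells were taken after thinning to 4000 UMIs (8000 as an alternative), and exact permutation tests used samples as units. In the likeness to Acta2 and Myh11, genes had a mean of 10 or more and 5 or more CPM, a pseudocount of 1 was used, and the 5 most like genes are named. Beside the members, 10 partner and regulator genes are named in every case.

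No doublets were removed: Scrublet (scanpy 1.11.5) marked 7 of 25428 cells, a number so low that its calls were not used. Cells carry serial numbers in place of barcodes, so barcodes shared between libraries could not be counted. The members and lists were chosen with earlier results of these data known. The UMI depth sets counting error only, and the spread between samples was taken from 3 samples per genotype. The summed level of 1 marker list is not reported here.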

Additional observations from a re-analysis of the deposited data

Results flagged for a closer look

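The genotype effect on Actg2 was lower in Fibroblast proliferating than in Fibroblast, by -0.21 on the log2 scale (adjusted p = 0.0108 in voom-limma), and it is listed because a test of the difference between the 2 cell types passed its threshold. By edgeR it was not called (adjusted p = 0.0738), and without 1 sample at a time the adjusted p in voom-limma ranged from 0.0127 to 0.112. The ratio of the types was lower in 3 of 3 ko/ko samples than in any wt/wt sample. Actg2 itself was not called for genotype in either type, and both types come from the same libraries.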

How the results depend on the processing

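Of 512 alternative values other than those that leave out a sample, 475 kept the result, as did 404 of 450 that leave out a sample, over 78 results. A tested value was kept if its direction and its side of the threshold were, a ratio if it moved by less than 1 SD, and a count if it stayed within 1.5 times. In 15 of 17 units no member was called under any alternative. In Myeloid cells, with 2 samples against 2, the count of members called went from 0 to 2 without the low-count filter, to 1 with batch as a term, which takes up ko/ko 3 and leaves ko/ko 2 alone against wt/wt, and to 1 with the replicate number as a block (Actg2, adjusted p = 0.00282 in voom-limma), and to between 1 and 2 without 1 sample (Actg2 or Acta1), where 1 arm is a single sample assumed to vary like the other arm. In sub-cluster 4 the count of members called went to 1 (Cnn1) with DESeq2, which called 1.21% of all genes there, and to 1 without the filter. For the other fits of this paragraph the share of all genes called is not given here, so these counts of members cannot be set against it.

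Log2 fold changes near 0 turned sign. In whole samples Cnn1 was at 0.017 with edgeR, 0.024 with DESeq2 and 0.0068 with DESeq2's size factors, Mylk at -0.0083 with library size alone and -0.11 with batch as a term, and Acta1 at -0.017 with edgeR, -0.0090 with DESeq2, -0.013 with library size alone and -0.00393 without the filter. In Fibroblast, batch as a term gave -0.067 for Cnn1, -0.093 for Mylk and -0.014 for Actg2. Without 1 sample, whole-sample values ranged from -0.15 to 0.10 for Cnn1, -0.385 to 0.021 for Myh11, -0.10 to 0.065 for Mylk, -0.035 to 0.18 for Des, -0.14 to 0.16 for Acta1, -0.16 to 0.11 for Lmod1 and -0.12 to 0.0034 for Actg2. In Fibroblast they ranged from -0.049 to 0.16 for Cnn1, -0.24 to 0.15 for Myh11, -0.075 to 0.19 for Mylk, -0.13 to 0.37 for Acta1 and -0.11 to 0.19 for Lmod1. None of these was called.

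The difference of the genotype effect on Actg2 was -0.21 by edgeR and was not called. Without 1 sample it ranged from -0.24 to -0.20, called without wt/wt 1 (adjusted p = 0.0204 in voom-limma) or ko/ko 2 (0.0127) and not without wt/wt 2 (0.0617), wt/wt 3 (0.112), ko/ko 1 (0.0873) or ko/ko 3 (0.0728). Members called in that comparison numbered 0 by edgeR and 0 to 1 without 1 sample. For Fibroblast 2 against Fibroblast they numbered 0 to 3 without 1 sample, with Acta2, Tagln and Lmod1 called without wt/wt 1, where 47 of 19287 genes were called, and Acta1 without wt/wt 3, where 1 of 19340 was. By edgeR they numbered 3 for Endothelial, 2 for Pericyte and 1 for Myeloid cells. Among them, Acta1 in Endothelial cells and Des in Pericyte passed the expression filter only with the Fibroblast sums joined in. The cause was not tested.

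The median over cells, in place of sums, gave log2 ratios of -2.48 for Acta2 and -1.29 for Tagln (Fibroblast 2 over Fibroblast), -3.92 and -3.12 (sub-cluster 4 over 1), and 2.78 for Mylk, 1.32 for Lmod1 and 0.0073 for Acta2 (sub-cluster 7 over 1), the last with its sign turned. Ratios with a median of 0 over cells gave no value. Without the cells of highest doublet score, Mylk in RPE over Fibroblast was at -5.24. Members whose shares of cells did not overlap between genotypes in Fibroblast went from 0 to 2 when thinned to 8000 UMIs, to 1 without thinning, and to between 0 and 3 without 1 sample, with no value over all genes to compare.

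Replicate numbers did not pair the samples. The correlation of same-numbered samples' deviations was 0.10, -0.42 and 0.03 in whole samples, and 1 of 6 samples in whole samples (ko/ko 1) and 2 of 6 in Fibroblast correlated best with their own number. With the replicate block no member was called in whole samples (0) or in Fibroblast, and the smallest exact sign-flip p over shares was 0.25, the lowest that 3 pairs allow, so this test could not pass 0.05. Batch and genotype cannot be told apart for ko/ko 3, the only sample of its batch.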
